A study of Mus musculus with 20 samples.

Results

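Chemokines, cytokines and their receptors were followed in the kidney cortex of mice after 3 kinds of acute injury. Members were chosen by gene symbol alone: CC, CXC and CX3C chemokines and their numbered receptors, interleukins and interleukin receptors, the colony-stimulating factors, TNF superfamily ligands, and LIF and oncostatin M with their receptors. This gave 64 of the 6025 genes in the deposited table. They were divided by textbook role into 39 ligands, with the secreted antagonist Il1rn counted among them, and 25 receptors. Tnf, Csf2, Csf3 and Osm were not analysed here.

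All mice were wild-type C57BL/6 animals aged 8 weeks. The control group held 8 libraries labelled as mock, while the series' design text speaks of mock and vehicle animals without saying which is which. The ischemia-reperfusion group (IRI, in which blood flow to the kidney is stopped and restored) held 4 libraries at 24 h. The rhabdomyolysis group (kidney injury from muscle breakdown) held 4 libraries at 24 h, and the cisplatin group (a platinum drug toxic to tubular cells) held 4 libraries at 72 h. Injury and time therefore cannot be told apart where cisplatin is set against the other two. The length of ischemia, the agent that caused rhabdomyolysis and the cisplatin dose were not given in the sources used here.

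Chemokines are small secreted proteins that draw leukocytes along a gradient through receptors with a G protein partner: CXCR2 ligands act on neutrophils, CCR2 ligands on monocytes. Interleukins of the IL-6 family signal through the shared chain gp130 (Il6st) and STAT3, and the IL-1 family signals through MyD88 and NF-kB. Injured tubular epithelium, resident macrophages and incoming leukocytes are all known sources of these ligands in the kidney. In bulk cortex, fewer cells of a type and less RNA per cell cannot be told apart, and the same holds for more cells and more RNA per cell.

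Libraries held 3476635 to 5396140 reads in the deposited table, and 1 read was worth 0.0945 to 0.165 CPM (reads scaled to library size). These reads are 55.31 to 70.58% of the effective library size in controls and 42.13 to 48.27% in injured libraries, where that size is taken from the CPM of 1 read and its definition was not given in the sources used here. The table is a selection, since all 6025 genes differed from the control mean by at least 1.5-fold in 1 or more injuries or had a control mean of 0. Library identifiers ran in 2 ranges, A (controls 1 to 4 and all IRI libraries) and B (controls 5 to 8, rhabdomyolysis and cisplatin), so the 4 controls of the matching range served as reference for each injury. Rhabdomyolysis and cisplatin share controls 5 to 8. Between the control ranges limma called 0 of 5672 genes at an adjusted p of 0.05, with 454 genes and 6 members (Csf1, Il1f9, Il34, Il3ra, Il4ra and Tnfsf10) under an unadjusted 0.05. Proximal tubule markers, which define the cortex, summed to 28000 to 50800 CPM in controls and to 4230 to 14300 CPM in injured libraries. CPM here are not corrected for gene length, so levels are compared within a gene only.

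Ligands and receptors were both mostly higher in injured cortex, and the largest rises on the log2(CPM + 1) scale were of ligands. Of the 64 members, 54 (33 ligands and 21 receptors) reached a mean of 1 CPM and were tested with limma on log2(CPM + 1), with p-values adjusted over all genes tested. In IRI, 33 members were called higher and 7 lower at an adjusted p of 0.05, beside 40.6% of all tested genes called higher and 40.1% called lower. In rhabdomyolysis, 44 were higher and 8 lower, beside 48.8% and 46.5% of all genes. In cisplatin, 42 were higher and 6 lower, beside 47.8% and 44.0%. A member that reached the minimum only through injured libraries had to differ, so these counts describe the tested members and not all 64.

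In IRI, 22 of 33 ligands and 11 of 21 receptors were higher, and 5 ligands and 2 receptors were lower. Rhabdomyolysis had 26 ligands and 18 receptors higher, with 6 and 2 lower. Cisplatin had 25 ligands and 17 receptors higher, with 4 and 2 lower. The median ligand change, on the log2(CPM + 1) scale, was 0.99 for IRI, 1.65 for rhabdomyolysis and 1.68 for cisplatin. The median change of receptors was 0.53, 1.09 and 1.00 in the same order, beside 0.08, 0.31 and 0.30 for all genes tested. In edgeR with TMM on the recovered reads the ligand medians were 1.75, 2.56 and 2.56 and the receptor medians 0.811, 1.69 and 1.49, and the IRI ligand median was 1.67 in edgeR with deposited sizes and 1.64 in DESeq2. These medians cover tested members, and with no minimum mean the IRI ligand median was 0.712. With the genes at 0 reads in all matched controls set to their lower bounds, the ligand medians were 1.00, 1.65 and 1.80, and the receptor medians stayed at 0.529, 1.09 and 1.00. The ligand median exceeded the receptor median in each injury, and this difference was not tested. Individual IRI libraries had ligand medians of 0.653 to 0.990 and receptor medians of 0.454 to 0.677, so the lowest ligand value lay within the receptor range. Rhabdomyolysis 4 had a ligand median of 0.834 and a receptor median of 0.861, and it was the only injured library with the ligand median below the receptor median. The highest injured mean fell in cisplatin for 24 of 39 ligands, in rhabdomyolysis for 14 and in IRI for 1. For the 25 receptors it fell in cisplatin for 7, in rhabdomyolysis for 14 and in IRI for 4. These ranks compare group means in CPM of all members, tested or not, without their controls. For a member that fell, such as Cxcl12, the highest mean is the least reduced. The same counts over all genes were not made.

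**Figure D1:**
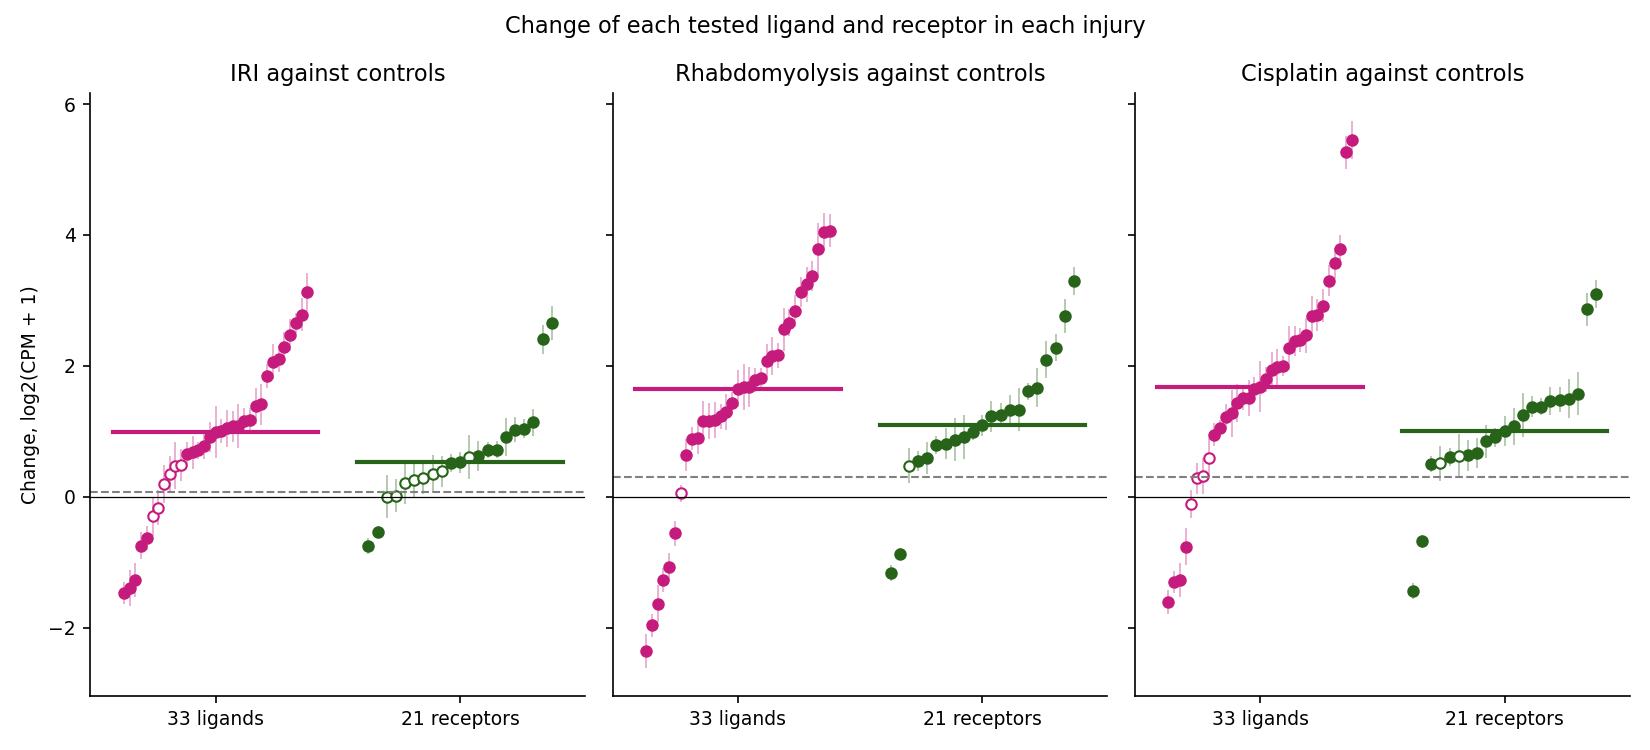
Change of each tested member against the 4 controls of its range, on the log2(CPM + 1) scale, for 33 ligands and 21 receptors, ordered by size within each panel. Filled points passed an adjusted p of 0.05 in limma, vertical lines are standard errors, thick lines are medians by role (ligands 0.99, 1.65 and 1.68 from left to right), and dashed lines are medians of all genes tested.

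Many members rose in the same injuries, so their promoters were searched for an NF-kB-type motif, GGGNNNTTCC on either strand. RefSeq windows of GRCm38.p6 ran from 250 bases before to 50 bases after each listed start of a gene. A gene with several starts counted if any of its windows matched. The motif was in 12 of 49 members with a promoter entry (24.5%): 8 of 27 ligands (29.6%) and 4 of 22 receptors (18.2%). It was in 6.31% of all 27025 genes with a promoter and in 7.62% of the 4477 such genes of the deposited table. A match is a description of letters and not a binding site. The ligands with it were Ccl20, Ccl9, Csf1, Cxcl1, Cxcl10, Cxcl2, Il1rn and Il6, and the receptors were Il17rc, Il1r1, Il2ra and Il4ra. The Il1r1 match (chr1:40266354-40266363) lay at a start inside the gene, whose first base is at 40222480. The stretches around the motif are shown for 5 ligands whose values follow, with the motif in capitals, each read 5′ to 3′ on the strand of its gene.
Cxcl1, chr5:90891121-90891219, plus strand, with 3 matches of which 2 overlap: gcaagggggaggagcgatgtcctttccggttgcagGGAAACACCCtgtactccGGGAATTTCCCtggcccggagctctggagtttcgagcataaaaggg
Cxcl10, chr5:92348949-92349083, minus strand, with 2 matches: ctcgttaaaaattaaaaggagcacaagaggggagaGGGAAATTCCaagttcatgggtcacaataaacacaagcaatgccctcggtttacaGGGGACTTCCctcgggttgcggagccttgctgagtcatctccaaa
Csf1, chr3:107760579-107760658, minus strand, with 1 match: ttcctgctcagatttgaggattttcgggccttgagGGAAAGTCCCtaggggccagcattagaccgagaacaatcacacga
Ccl20, chr1:83116651-83116730, plus strand, with 1 match: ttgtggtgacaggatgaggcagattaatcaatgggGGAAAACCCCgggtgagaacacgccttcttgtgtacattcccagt
Ccl9, chr11:83578637-83578706, minus strand, with 1 match: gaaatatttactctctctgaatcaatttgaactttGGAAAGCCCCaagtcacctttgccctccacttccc

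In the IL-6 family the ligands Lif and Il11 rose while their specific receptors Lifr and Il11ra1 fell, and the oncostatin M receptor Osmr and the shared chain Il6st rose. Lif (leukemia inhibitory factor) had a median of 0.268 CPM in controls, between 0 and 0.575. Its IRI libraries were at 10.4, 18.2, 10.4 and 5.83 CPM, its rhabdomyolysis libraries at 19.9, 19.8, 31.3 and 8.97, and its cisplatin libraries at 38.3, 62.8, 61.7 and 43.7. No injured library overlapped the controls, and all cisplatin libraries lay above all others. The mean was 35.8-fold higher in IRI. Matched controls of the other injuries held 3 reads or fewer each, and the ratio of summed reads was 111 in rhabdomyolysis (95% counting interval 47.2 to 341) and 280 in cisplatin (120 to 862). The changes were 3.13 ± 0.29 (SE, adjusted p = 4.02e-09), 4.04 ± 0.29 (1.75e-11) and 5.45 ± 0.29 (2.18e-13) on the log2(CPM + 1) scale. These intervals cover counting error only.

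Il11, a cytokine of stromal and epithelial cells, was at 0 to 0.575 CPM in controls with a median of 0.0668. Rhabdomyolysis libraries were at 19, 13.1, 30.1 and 5.34 CPM, cisplatin libraries at 1.17, 7.17, 3.46 and 1.07, and IRI libraries at 1.05, 2, 1.38 and 0.686. All 3 injured groups lay above the controls, and rhabdomyolysis and cisplatin overlapped at their ends. Il11 rose by 3.79 ± 0.39 in rhabdomyolysis (adjusted p = 7.56e-09), 1.68 ± 0.39 in cisplatin (0.000454) and 0.99 ± 0.39 in IRI (0.0258). Il6 itself, the family's namesake and an inducer of the acute phase response, was at 0 in 7 of 8 controls and at 0.144 CPM in the eighth. It reached 4.82, 4.24, 5.32 and 1.02 CPM in rhabdomyolysis and 1.4, 3.63, 1.9 and 0.678 in cisplatin. Those levels were at least 8.6-fold and at least 4.25-fold higher than 3 reads per control library. IRI libraries held 0 to 0.266 CPM of Il6, with no call (adjusted p = 0.531).

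Among the receptor chains, Osmr had a control median of 5.58 CPM (3.1 to 8.21). It stood at 29.9, 39.3, 26.3 and 25.9 CPM in IRI, 64.4, 73.6, 69.7 and 50.1 in rhabdomyolysis, and 58.4, 61.3, 62.8 and 42 in cisplatin, all above the controls. The means were 5.86-fold, 11.3-fold and 9.88-fold higher, with log2 changes of 2.41, 3.30 and 3.1 (SE 0.22 each; adjusted p = 3.30e-09, 5.50e-12 and 2.68e-11). Il11ra1, the specific IL-11 receptor chain, went the other way. It had a control median of 82.5 CPM (62.6 to 90.9) and stood at 49.4, 38.2, 48.8 and 42.4 in IRI, 45.3, 32.5, 38.6 and 35.9 in rhabdomyolysis, and 28.9, 30.7, 31.4 and 32.8 in cisplatin. Every injured library lay below every control. Il11ra1 fell by 0.75 ± 0.12 in IRI (adjusted p = 8.85e-06), 1.16 ± 0.12 in rhabdomyolysis (6.65e-09) and 1.44 ± 0.12 in cisplatin (3.64e-10) on the log2 scale. Its transcript is 99.0% identical to Il11ra2 over 66.5% of its length and 98.97% identical to Gm13305 over 82.3%, so its reads may be divided between copies. Lifr had a control mean of 99.2 ± 6.66 CPM (SD, n = 8) while IRI was at 68.0 ± 6.30, rhabdomyolysis at 53.8 ± 1.30 and cisplatin at 61.8 ± 5.98 (n = 4 each). Lifr fell by 0.54, 0.87 and 0.68 on the log2 scale (SE 0.10 each; adjusted p = 3.89e-05, 2.02e-08 and 1.21e-06). Il6st, the shared chain, rose from 164 ± 29.2 CPM to 218 ± 17.3, 300 ± 29.2 and 265.5 ± 23.0, or by 0.52, 0.79 and 0.62 on the log2 scale. Il6ra, the IL-6 binding chain, was at 1.13 to 4.44 CPM in controls, with a median of 2.97. It was at 15.7, 11.8, 11.8 and 20.9 CPM in rhabdomyolysis and 7.12, 8.48, 6.7 and 4.94 in cisplatin, above the controls in both. IRI libraries held 2.66 to 3.89 CPM, inside the control range, and Il6ra had no call there (0.35 ± 0.28, adjusted p = 0.245).

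**Figure D2:**
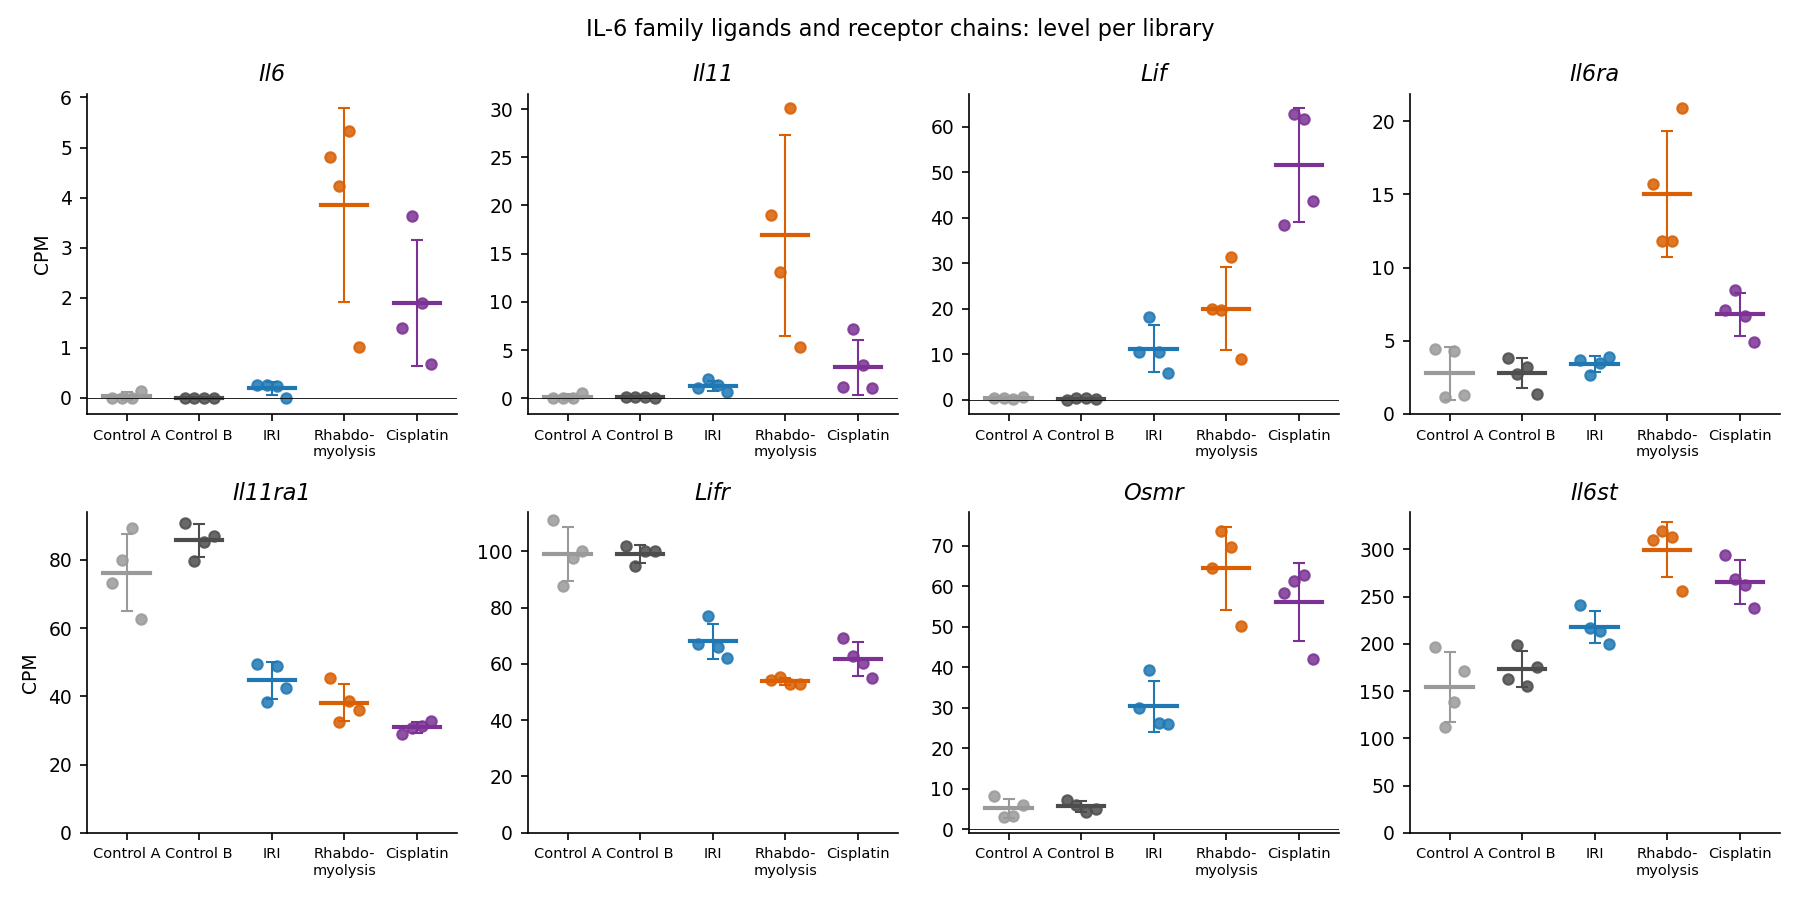
Level in CPM of IL-6 family ligands (Il6, Il11, Lif) and receptor chains (Il6ra, Il11ra1, Lifr, Osmr, Il6st) in each of the 20 libraries, with control ranges A and B drawn apart. Points are libraries, horizontal bars are means and whiskers are SD (n = 4), and Il11ra1 and Lifr are lower in every injured library while Osmr is higher.

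Of the IL-1 family ligands, the receptor antagonist Il1rn and Il1f6 had the largest fitted changes on the log2(CPM + 1) scale. Il1rn stood at 0 to 0.269 CPM in controls (median 0.0645), at 8.39, 9.99, 6.43 and 3.2 in IRI, at 21.2, 17.6, 25.4 and 9.65 in rhabdomyolysis, and at 33, 47.4, 44 and 41.8 in cisplatin. The groups did not overlap between cisplatin and any other, while the lowest rhabdomyolysis library lay beneath the highest IRI library. The ratio of summed reads over matched controls was 66.7 in IRI (22.5 to 326), 170 in rhabdomyolysis (57.9 to 825) and 377 in cisplatin (129 to 1830). Changes were 2.78, 4.07 and 5.26 on the log2(CPM + 1) scale (SE 0.26 each; adjusted p = 4.01e-09, 2.38e-12 and 5.57e-14). Il1f6, the IL-36 alpha gene, an epithelial alarm cytokine, was at 0 reads in all 8 controls. It reached 6.16, 7.46, 4.36 and 1.94 CPM in IRI, 6.43, 5.71, 5.61 and 6.93 in rhabdomyolysis, and 7.94, 6.96, 14.6 and 7.55 in cisplatin. These means were at least 12.1-fold, 13.8-fold and 20.7-fold higher than 3 reads per control library. IRI overlapped both other injuries, and every cisplatin library lay above every rhabdomyolysis library, by a narrow margin. Il1f9, the IL-36 gamma gene, rose by 1.00, 1.43 and 1.51 (adjusted p = 3.92e-05, 1.52e-07 and 1.06e-07). Il33, an alarm cytokine kept in the nucleus, rose by 1.05, 1.65 and 1.98 from a control mean of 10.1 ± 1.85 CPM (adjusted p = 0.00197, 1.00e-05 and 1.25e-06).

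Il1b, the pro-inflammatory IL-1 of myeloid cells, differed from Il1rn in size. Its mean was 0.815 ± 0.246 CPM in controls, 1.46 ± 0.470 in IRI, 5.97 ± 3.55 in rhabdomyolysis and 3.79 ± 1.88 in cisplatin. It had no call in IRI (adjusted p = 0.212) and rose in rhabdomyolysis (adjusted p = 0.000131) and cisplatin (0.00200). Its rhabdomyolysis libraries ran from 1.02 to 8.84 CPM, and the lowest overlapped the controls. The signalling receptor Il1r1 rose from 8.31 ± 1.92 CPM, with IRI at 19.0 ± 0.543, rhabdomyolysis at 44.7 ± 11.7 and cisplatin at 24.9 ± 5.98 (adjusted p = 4.36e-05, 8.13e-10 and 1.11e-06). The decoy receptor Il1r2, which binds IL-1 without signalling, was at 0 reads in 7 of 8 controls. Control 4 held 0.288 CPM. Il1r2 reached 0.459 to 1.6 CPM in IRI, 1.38 to 3.52 in rhabdomyolysis and 0.817 to 5.36 in cisplatin, and rose in each (adjusted p = 0.00741, 1.40e-05 and 6.36e-05). Il1rl2, the IL-36 receptor, rose in rhabdomyolysis and cisplatin by 1.23 and 1.00 (adjusted p = 4.03e-05 and 0.000423). In IRI its change was 0.39 with an adjusted p of 0.128.

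Among CXC chemokines, the CXCR2 ligands rose and the receptor rose with them. Cxcl1, a neutrophil attractant, was at 0 to 0.321 CPM in controls with a median of 0.139. It was at 3.41, 6.79, 3.56 and 2.29 CPM in IRI, 7, 6.5, 5.99 and 5.68 in rhabdomyolysis, and 15.1, 20.1, 12.6 and 13 in cisplatin. Cisplatin libraries were all above the rhabdomyolysis libraries, and all injured libraries were above the controls. The ratio of summed reads was 38.3 in IRI (12.8 to 188), 42.7 in rhabdomyolysis (16.5 to 158) and 103 in cisplatin (40 to 379). Log2 changes were 2.11, 2.66 and 3.79 (SE 0.20 each; adjusted p = 6.70e-09, 4.34e-11 and 2.24e-13). Cxcl2, a second such ligand, rose by 0.68 ± 0.25 in IRI (adjusted p = 0.0166), 2.08 ± 0.25 in rhabdomyolysis (6.23e-08) and 2.92 ± 0.25 in cisplatin (5.18e-10). Cxcr2, their receptor on neutrophils, rose from 2.55 ± 0.499 CPM to 6.05 ± 2.37, 7.88 ± 0.509 and 9.47 ± 0.947. Its log2 changes were 1.03, 1.25 and 1.48 (adjusted p = 4.57e-05, 1.82e-06 and 2.34e-07). Summed neutrophil markers (8 of 15 listed genes in the table) were also higher in every injured library than in any control. The sums spanned 2.39 to 5.27 CPM for controls, 15.1 to 29.8 for IRI, 25.9 to 54.4 for rhabdomyolysis and 20.8 to 46.2 for cisplatin. The rhabdomyolysis and cisplatin ranges overlapped, while Cxcl1 and Cxcl2 were called higher in cisplatin than in rhabdomyolysis. Markers called higher numbered 7, 7 and 8 by injury in that order, with 0 lower, beside 40.6%, 48.8% and 47.8% of all tested genes. Hdc had no call for IRI (adjusted p = 0.987) or rhabdomyolysis (0.213). Trem1, 1 of those markers, was at 0 in all controls. The part of these cells in the rise of Cxcr2 was not tested.

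The interferon-linked CXCR3 ligands Cxcl9 and Cxcl10, neighbours 18.6 kb apart on chromosome 5, moved in opposite directions. Cxcl10 had a control median of 5.92 CPM (4.13 to 7.41) and stood at 44.2, 53.8, 63.2 and 38 in cisplatin. Its rhabdomyolysis libraries were at 12.7, 12.5, 15.3 and 4.54 CPM and its IRI libraries at 8.26, 9.46, 6.2 and 7.66. All cisplatin libraries were above all others, while rhabdomyolysis and IRI overlapped the controls. Cxcl10 rose 7.85-fold in cisplatin (2.78 ± 0.25 on the log2 scale, adjusted p = 9.40e-10) and 1.77-fold in rhabdomyolysis (adjusted p = 0.0168), with no call in IRI (0.0701). The gene overlaps the protein-coding gene Art3. Cxcl9 had a control median of 3.73 CPM (1.55 to 4.71). It stood at 0.473, 0.69, 0.76 and 0.341 CPM in rhabdomyolysis, 1.4, 2.22, 2.57 and 1.36 in cisplatin, and 0.262, 2.13, 0.23 and 0.114 in IRI. IRI 2 overlapped its matched controls, the other IRI libraries did not, and cisplatin lay below controls 5 to 8 but not below all 8. Cxcl9 fell by 1.63 ± 0.28 in rhabdomyolysis (adjusted p = 1.16e-05), 0.76 ± 0.28 in cisplatin (0.0144) and 1.39 ± 0.28 in IRI (0.000138) on the log2 scale.

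Cxcl12, a homeostatic chemokine that retains CXCR4-bearing cells, had the largest fall of any tested member in rhabdomyolysis on the log2(CPM + 1) scale, while by ratio of means Cxcl9 was lower (0.147 against 0.191). It had a control median of 135 CPM (116 to 207). It stood at 59.4, 57.7, 66.1 and 62.2 CPM in IRI, 28.6, 20, 37.2 and 21.2 in rhabdomyolysis, and 104, 51.7, 30.1 and 60.8 in cisplatin, and every injured library lay below every control. The means were 0.401, 0.191 and 0.44 of the matched controls, and Cxcl12 fell by 1.28, 2.36 and 1.27 on the log2 scale (SE 0.26 each; adjusted p = 0.000155, 1.89e-08 and 0.000109). Its receptor Cxcr4 was higher in each injury by 0.63, 1.33 and 0.67 (adjusted p = 0.0168, 1.26e-05 and 0.00940). Cxcl14, an epithelial chemokine, had a control median of 21.3 CPM (14.4 to 29.3) and stood at 89.9, 42, 106 and 33.3 in rhabdomyolysis, above all controls. Its cisplatin libraries were at 25.9, 41.6, 31.5 and 18.3 CPM and its IRI libraries at 20.8, 20.5, 21.5 and 14, both overlapping the controls. Cxcl14 rose by 1.68 ± 0.30 in rhabdomyolysis (adjusted p = 1.98e-05) and had no call in cisplatin (0.0643) or IRI (0.361). Cxcl16, the membrane-bound CXCR6 ligand, rose in IRI (0.71 ± 0.13, adjusted p = 5.11e-05) and cisplatin (1.05 ± 0.13, 1.97e-07) and had a change of 0.05 ± 0.13 in rhabdomyolysis (0.703). Cx3cl1, the CX3CR1 ligand fractalkine, rose by 1.18, 0.89 and 0.95 in IRI, rhabdomyolysis and cisplatin from 83.1 ± 11.6 CPM. Cxcl17, a mucosal chemokine, went from 0 to 0.165 CPM in controls to 2.4 to 3.06, 1.48 to 3.52 and 3.68 to 5.85 CPM.

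Among CC chemokines, Ccl9 and its receptor Ccr1 were higher in all injured libraries. Ccl9 had a control median of 1.69 CPM (1.15 to 2.56). It reached 16.5, 7.99, 8.27 and 10.3 CPM in IRI, 44, 21.8, 21.2 and 21.2 in rhabdomyolysis, and 15.4, 21, 15.6 and 8.62 in cisplatin. Rhabdomyolysis lay above the other injuries in every library. The means were 6.11-fold, 14.6-fold and 8.2-fold higher, with log2 changes of 2.06, 3.25 and 2.47 (SE 0.27 each; adjusted p = 6.07e-07, 1.76e-10 and 2.55e-08). Ccr1 was at 0 to 0.985 CPM in controls with a median of 0.295, and at 11.4, 7.59, 11.6 and 6.52 in IRI. Its rhabdomyolysis libraries held 10.7, 4.83, 8.27 and 4.09 CPM and its cisplatin libraries 5.84, 10.7, 8.04 and 4.94. The 3 injured groups overlapped one another. Ccr1 rose by 2.65, 2.76 and 2.86 (SE 0.26 each; adjusted p = 8.91e-09, 1.35e-09 and 1.32e-09).

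Ccl2, the CCR2 ligand that draws monocytes, rose from 0.276 ± 0.215 CPM, with IRI at 1.75 ± 0.614, rhabdomyolysis at 7.53 ± 4.40 and cisplatin at 5.29 ± 1.85 (adjusted p = 0.00543, 2.35e-07 and 1.79e-06). Ccr2 itself was at 4.99 ± 1.54 CPM in controls and 4.71 ± 0.650 in IRI, with a change of 0.00 ± 0.33 there. It rose in rhabdomyolysis (0.87 ± 0.33, adjusted p = 0.0161), where its libraries overlapped the controls, and had no call in cisplatin (0.62 ± 0.33, 0.0758). Ccl20, the CCR6 ligand, was at 0 in 7 of 8 controls, and control 3 held 1 read. It reached 3.03, 6.56, 8.94 and 5.91 CPM in cisplatin, 1.13, 2.17, 1.71 and 0.341 in rhabdomyolysis, and 0.918, 4.53, 2.18 and 0.686 in IRI. Cisplatin was at least 13.7-fold and rhabdomyolysis at least 2.99-fold above 3 reads per control library, and all cisplatin libraries were above all rhabdomyolysis libraries. Ccl20 rose by 1.41, 1.16 and 2.76 in IRI, rhabdomyolysis and cisplatin (SE 0.31 each; adjusted p = 0.000342, 0.00146 and 4.61e-08). Ccl6 and Ccl11 rose in rhabdomyolysis (1.16 and 1.29) and cisplatin (1.51 and 1.94), with no call in IRI. Ccl19, a CCR7 ligand of lymphoid stroma, had a control median of 1.71 CPM (1.15 to 2.27). It stood at 0.656, 0.666, 0.23 and 0.343 CPM in IRI, 0.284, 0.296, 1.24 and 0 in rhabdomyolysis, and 2.45, 1.92, 1.23 and 1.36 in cisplatin. It fell by 0.74 ± 0.21 in IRI (adjusted p = 0.00302) and 1.07 ± 0.21 in rhabdomyolysis (6.25e-05) on the log2 scale, and overlapped the controls in cisplatin (-0.11 ± 0.21, adjusted p = 0.617). The Ccl19 transcript is 98.88% identical to Gm2564 over 57.8% of its length, which makes its level uncertain.

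The 2 ligands of the macrophage growth factor receptor CSF1R rose while that receptor fell. Csf1 had a control median of 7.24 CPM (3.94 to 11.4). It reached 36.5, 29.2, 31.8 and 26.4 CPM in IRI, 99.9, 74, 103 and 51.4 in rhabdomyolysis, and 145, 108, 78 and 112 in cisplatin. The lowest rhabdomyolysis library was above every IRI library, and rhabdomyolysis and cisplatin overlapped. The means were 5.43-fold, 9.73-fold and 13.1-fold higher, with log2 changes of 2.28, 3.12 and 3.57 (SE 0.23 each; adjusted p = 1.73e-08, 3.10e-11 and 6.66e-12). Il34, the second ligand, had a control median of 16.2 CPM (7.77 to 24.4). It was at 82.6, 76.9, 68.9 and 76.4 CPM in IRI, 62.3, 64, 75.5 and 78.5 in rhabdomyolysis, and 71.6, 85.5, 85.7 and 76.6 in cisplatin. The injured groups overlapped, and the rise of Il34 was 2.65, 1.82 and 2.00 (SE 0.15 each; adjusted p = 3.05e-12, 2.62e-10 and 9.51e-11). The receptor Csf1r is outside the symbol rule. Its mean was 51.7 ± 7.01 CPM in controls, and IRI was at 16.1 ± 1.55, rhabdomyolysis at 28.7 ± 9.47 and cisplatin at 29.5 ± 3.04 (adjusted p = 1.05e-07, 3.2e-05 and 0.000137). The other 4 colony-stimulating factor receptors of 5 listed, Csf2ra, Csf2rb, Csf2rb2 and Csf3r, were higher in each injury. Of all tested genes, 40.6%, 48.8% and 47.8% were called higher in IRI, rhabdomyolysis and cisplatin. Csf3r is also among the neutrophil markers above.

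**Figure D3:**
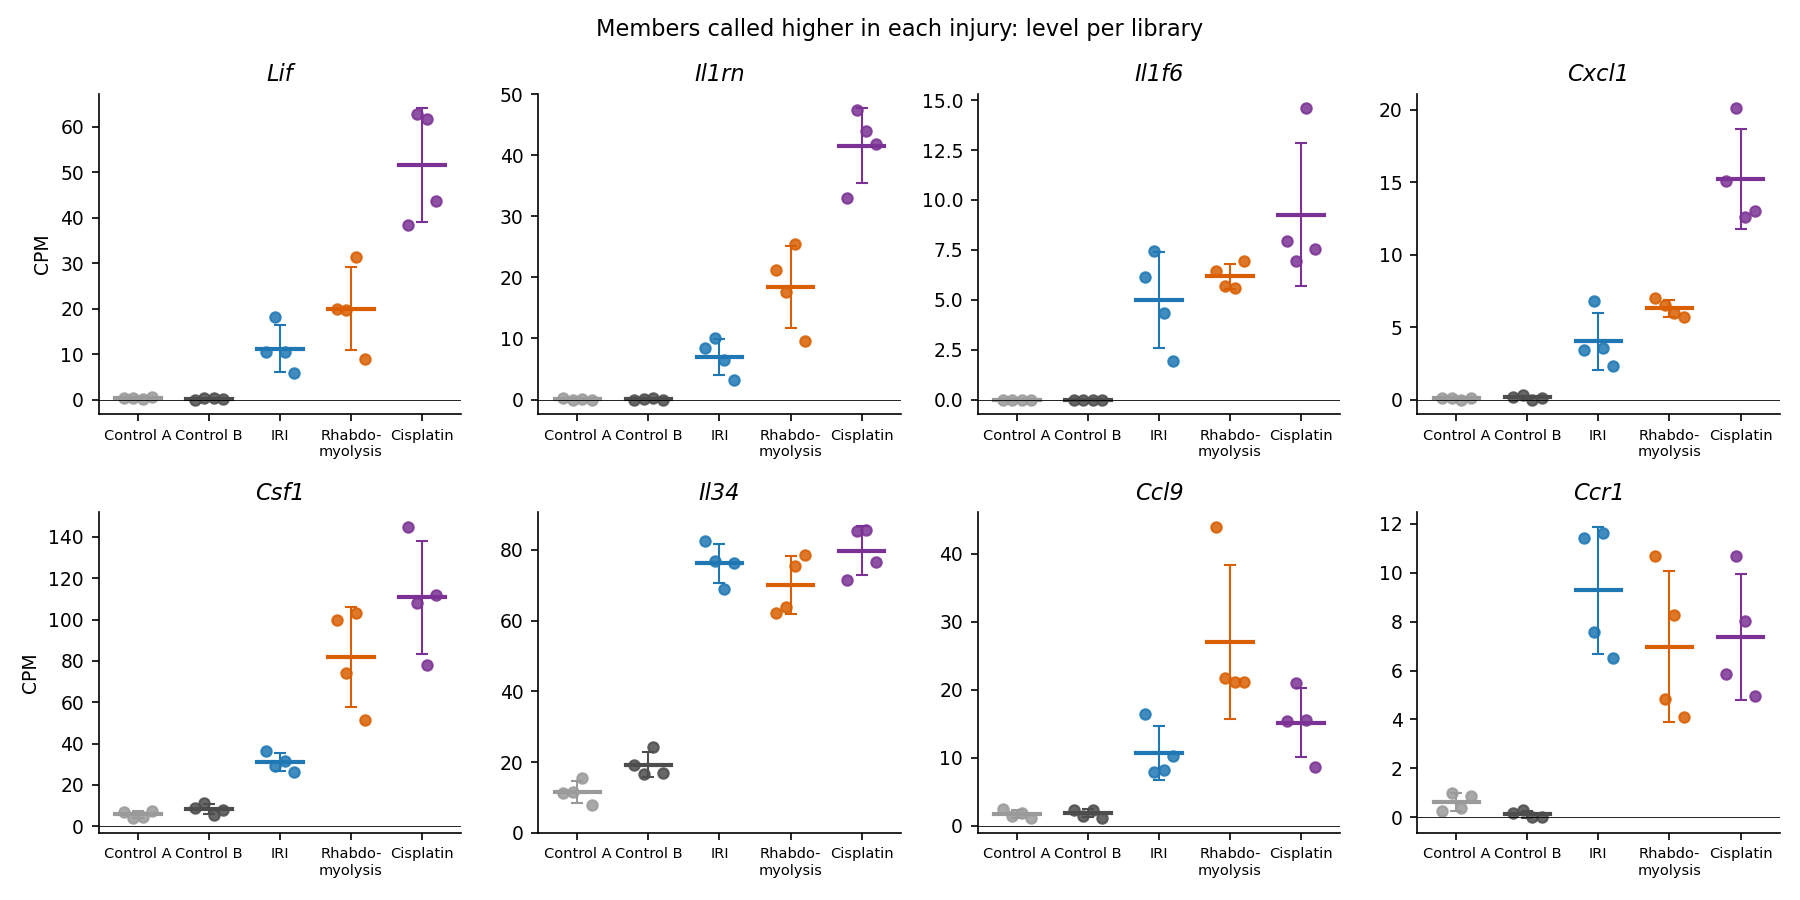
Level in CPM of 7 ligands and the receptor Ccr1 in each library, with the control ranges drawn apart. Points are libraries, horizontal bars are means and whiskers are SD (n = 4); no injured library overlaps the matched controls, and the cisplatin libraries are highest for Lif, Il1rn and Cxcl1.

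Cytokines that fell included Il15, a common gamma chain ligand that maintains NK and memory T cells. It had a control median of 12.8 CPM (10.7 to 14.2). It stood at 4.2, 5.06, 3.33 and 4 CPM in IRI, 2.93, 2.46, 2.38 and 1.59 in rhabdomyolysis, and 6.42, 3.23, 3.57 and 4.16 in cisplatin. No injured library reached the lowest control. The means were 0.316, 0.196 and 0.365 of the matched controls, and Il15 fell by 1.46, 1.96 and 1.30 on the log2 scale (SE 0.17 each; adjusted p = 1.27e-07, 4.02e-10 and 3.81e-07). Il7, also a common gamma chain ligand, went the other way, from 1.11 ± 0.338 CPM to 2.35 ± 0.517, 8.33 ± 1.62 and 5.58 ± 1.43 (adjusted p = 0.00367, 4.88e-10 and 6.09e-08). Il2rg, the common gamma chain, had no call in any injury (adjusted p = 0.380, 0.0934 and 0.0724). Its transcript is 100% identical to Gm20489 over 72.2% of its length. Il2ra, the high-affinity IL-2 chain, rose in rhabdomyolysis and cisplatin (adjusted p = 0.000640 and 0.000131). Il4ra, the IL-4 receptor chain, rose from 17.3 ± 3.09 CPM to 25.6 ± 1.65, 61.4 ± 2.60 and 52.5 ± 8.67, and Il13ra1, its partner for IL-13, from 93.2 ± 11.4 to 145 ± 8.48, 195 ± 19.9 and 140 ± 20.9. All 6 of these comparisons passed the test, with adjusted p between 9.19e-11 and 0.000737.

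Il24, an IL-20 family cytokine, was at 0 reads in all 8 controls. It reached 9.55, 12.5, 14.4 and 4.31 CPM in rhabdomyolysis, 3.62, 4.14, 5.59 and 3.78 in cisplatin, and 1.05, 0.932, 1.03 and 0.572 in IRI. IRI lay below both other injuries in every library, and 3 of 4 rhabdomyolysis libraries lay above all cisplatin libraries. Those means were at least 22.8-fold, 9.56-fold and 2.18-fold higher than 3 reads per control library (adjusted p = 7.06e-12, 3.55e-09 and 0.00107). Il20rb, a chain of its receptor, rose in rhabdomyolysis and cisplatin by 0.81 and 0.64 (adjusted p = 0.00278 and 0.0151). Il17rc, a chain of the IL-17 receptor, rose by 1.04, 0.55 and 0.91 in IRI, rhabdomyolysis and cisplatin (adjusted p = 2.16e-06, 0.00146 and 7.61e-06).

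TNF superfamily ligands did not share 1 direction. Tnfsf10, which encodes the death ligand TRAIL, had a control median of 82.3 CPM (49.0 to 93.2). It stood at 40, 45.7, 36.2 and 45.1 CPM in IRI, 48.4, 40.2, 32.6 and 24.8 in rhabdomyolysis, and 35, 28.2, 25.5 and 24.5 in cisplatin, below the controls of the same range in each. Tnfsf10 fell by 0.63, 1.28 and 1.60 on the log2 scale (SE 0.18 each; adjusted p = 0.00374, 9.31e-07 and 5.14e-08). The row Tnfsf12Tnfsf13, a readthrough of 2 neighbouring genes, had a control median of 5.66 CPM (3.16 to 7.22). It stood at 11.3, 12, 12.4 and 10.3 CPM in IRI, 11, 20.8, 16.6 and 15.6 in cisplatin, and 3.69, 3.35, 3.52 and 4.88 in rhabdomyolysis. It rose in IRI (1.16 ± 0.19, adjusted p = 1.60e-05) and cisplatin (1.23 ± 0.19, 5.14e-06) and fell by 0.56 ± 0.19 in rhabdomyolysis (0.00966), where the libraries overlapped the controls. Its transcript is 100% identical to Tnfsf13 over 53.3% and to Tnfsf12 over 52.7% of its length, so reads of the shared stretches may be divided among these rows. Tnfsf13, the ligand APRIL, has a row of its own with a control mean of 2.26 ± 0.803 CPM, and IRI was at 5.29 ± 1.77, rhabdomyolysis at 5.67 ± 2.11 and cisplatin at 3.28 ± 0.835. It rose in IRI (1.07 ± 0.23, adjusted p = 0.000279) and rhabdomyolysis (0.89 ± 0.23, 0.00106), with no call in cisplatin (0.28 ± 0.23, 0.248). Tnfsf13b, the B cell survival factor BAFF, rose by 0.77, 1.23 and 1.79 in IRI, rhabdomyolysis and cisplatin (adjusted p = 0.000930, 2.65e-06 and 1.63e-08). Tnfsf15, a ligand of DR3, had a control median of 3.19 CPM (1.29 to 4.28). It was at 7.74, 6.66, 6.2 and 9.15 CPM in IRI, 16.2, 8.37, 11.6 and 4.54 in rhabdomyolysis, and 6.19, 5.95, 3.46 and 3.68 in cisplatin. It rose in IRI (1.38 ± 0.27, adjusted p = 0.000115) and rhabdomyolysis (1.17 ± 0.27, 0.000382), with no call in cisplatin (0.32 ± 0.27, 0.270), where it overlapped the controls.

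The 10 members under a mean of 1 CPM, Ccl12, Ccl17, Ccl5, Ccl7, Il18r1, Il18rap, Il27ra, Il2rb, Tnfsf18 and Tnfsf9, were not tested. Tnfsf18, the ligand of GITR, was at 0 in all 8 controls and at 5.48, 3.94, 4.66 and 2.16 CPM in rhabdomyolysis, at least 9.07-fold above 3 reads per control library. It stayed at 0 to 0.35 CPM in cisplatin and 0.114 to 0.666 in IRI, so rhabdomyolysis did not overlap the other groups. Ccl12 and Ccl7, CCR2 ligands on the same chromosome as Ccl2, reached 3.59 and 3.99 CPM at most in rhabdomyolysis. Il2rb, a chain for IL-2 and IL-15, was the untested member with a lower mean in every injury, at 1.18 ± 0.260 CPM in controls, 0.454 ± 0.403 in IRI, 0.627 ± 0.351 in rhabdomyolysis and 0.884 ± 0.212 in cisplatin.

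Compared directly, rhabdomyolysis and cisplatin differed in more ligands than receptors, and this contrast of roles was not tested. Of the tested members, 12 (22.2%) were higher and 16 (29.6%) lower in rhabdomyolysis, near the shares of all genes (21.4% higher and 32.7% lower). By role, 8 of 33 ligands (24.2%) were higher and 15 (45.5%) lower. Of 21 receptors, 4 (19%) were higher and 1 lower (Il17rc, -0.36 ± 0.15, adjusted p = 0.0454). The median difference was -0.44 for ligands, 0.17 for receptors and -0.09 for all genes. The count of higher ligands fell to 5 without any 1 of rhabdomyolysis 1, rhabdomyolysis 3, cisplatin 3 or cisplatin 4, and the Il17rc call was lost without any 1 of controls 5 and 8, rhabdomyolysis 2, 3 and 4, cisplatin 2, 3 and 4 and IRI 2 and 3, which all enter the shared estimate of spread. CXC or CX3C chemokines had 7 of 9 members higher in cisplatin, and Cxcl14 was the 1 member higher in rhabdomyolysis. Of the 7, Cxcl9 and Cxcl12 were lower than controls in both injuries and fell less in cisplatin. The largest differences toward rhabdomyolysis were Il11 (2.1 ± 0.39, adjusted p = 0.000122), Cxcl14 (1.08 ± 0.30, 0.00459) and Il6ra (1.02 ± 0.28, 0.00409). The largest toward cisplatin were Cxcl10 (-2.13 ± 0.25, adjusted p = 2.17e-07), Tnfsf12Tnfsf13 (-1.78 ± 0.19, 9.81e-08) and Ccl20 (-1.60 ± 0.31, 0.000181). Lif (-1.41), Il1rn (-1.19), Cxcl1 (-1.13), Cxcl16 (-1.0) and Cxcl2 (-0.84) were also higher in cisplatin. Il24 (0.99), Ccl9 (0.78), Il1r1 (0.82) and Il6 (0.71) were higher in rhabdomyolysis. The times of 72 h and 24 h differ with the injury.

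**Figure D4:**
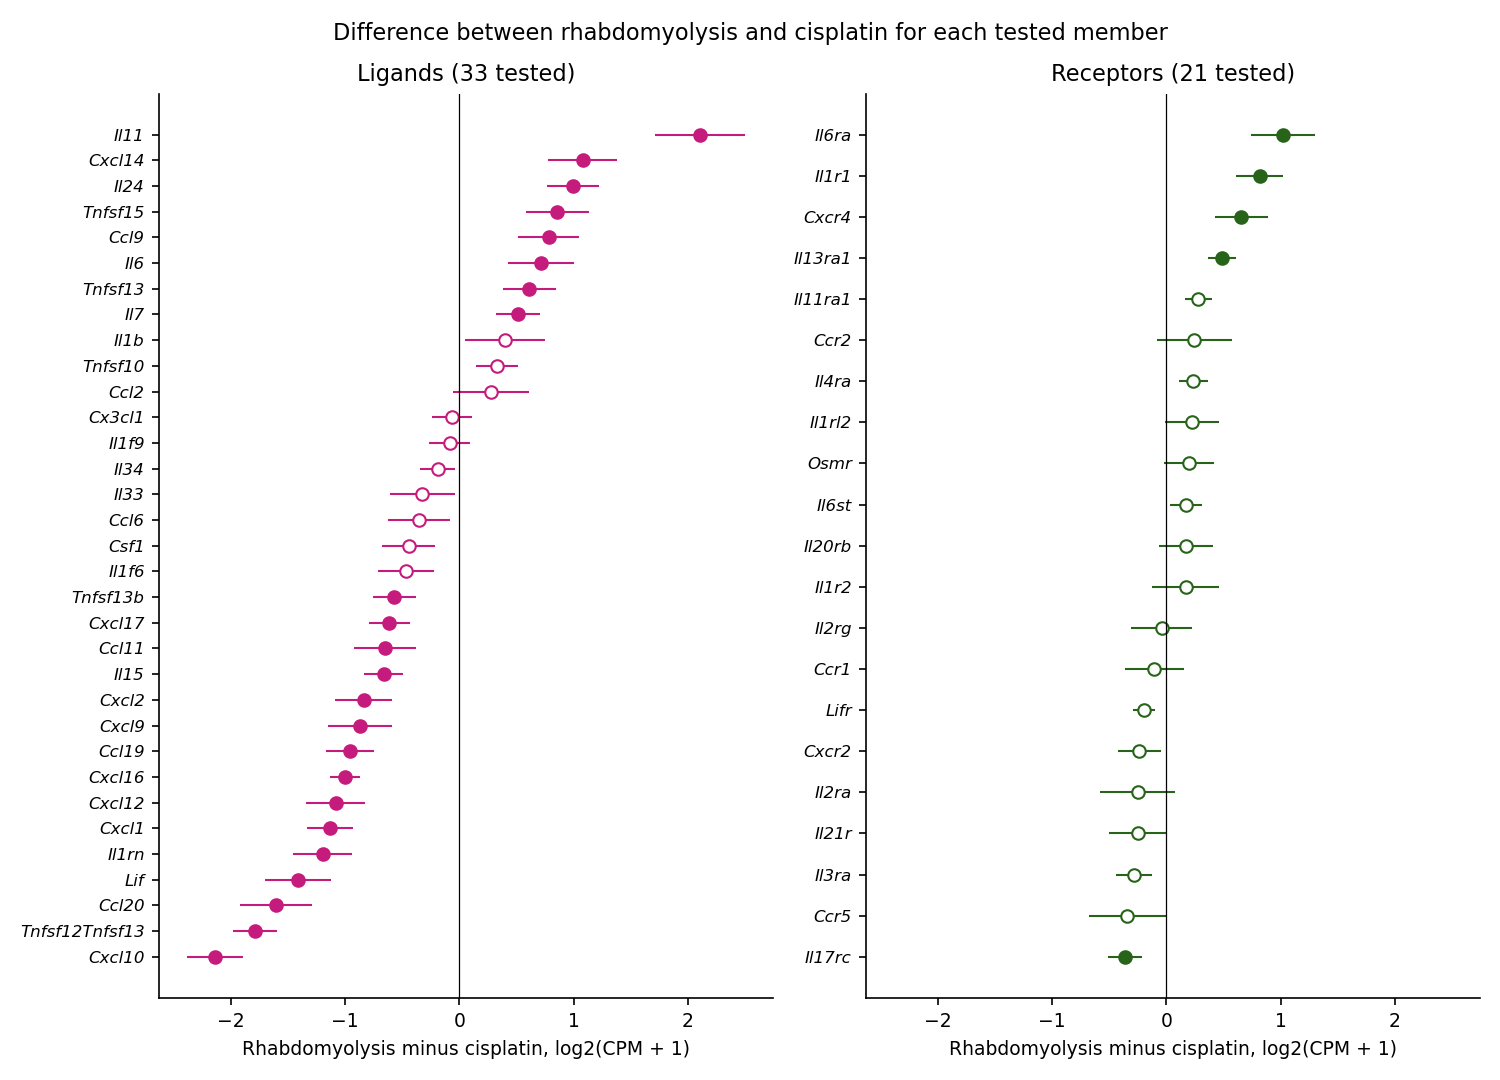
Difference between rhabdomyolysis and cisplatin for each tested member on the log2(CPM + 1) scale, ligands at left and receptors at right, with positive values higher in rhabdomyolysis. Points are fitted differences, lines are standard errors, and filled points passed an adjusted p of 0.05; 23 ligands and 5 receptors are filled.

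The IRI effect was set against each other effect, each measured from its own controls. Against rhabdomyolysis at the same 24 h, 7 members had a higher IRI effect and 20 a lower one, beside 28.6% and 23.4% of all genes. These were 5 ligands and 2 receptors higher, 13 ligands and 7 receptors lower. The 2 receptors, Il11ra1 and Lifr, became 0 without any 1 of controls 5, 7 and 8, rhabdomyolysis 2, 3 and 4, cisplatin 2 and 3 and IRI 1 and 3. The 7 lower receptors became 4 without any 1 of controls 1, 7 and 8, rhabdomyolysis 1 and 3 and IRI 2, and 12 with all 8 controls as 1 group. The 7 members with a higher IRI effect became 4 without any 1 of control 5, control 8, rhabdomyolysis 3 or rhabdomyolysis 4. The 20 became 11 in edgeR with TMM (5 ligands and 6 receptors) and 8 in edgeR with the deposited sizes (3 ligands and 5 receptors). Il11 (-2.79 ± 0.56, adjusted p = 0.000318), Il24 (-2.46 ± 0.32, 2.99e-06) and Cxcl14 (-1.98 ± 0.43, 0.000654) differed most toward rhabdomyolysis. In edgeR with TMM on the recovered reads, the difference was -4.07 with an adjusted p of 0.138 for Il11, and -3.55 with an adjusted p of 1 for Il24. Tnfsf12Tnfsf13 (1.72 ± 0.27, adjusted p = 3.01e-05), Cxcl12 (1.08 ± 0.37, 0.0181) and Il34 (0.84 ± 0.22, 0.00302) differed most toward IRI. With all 8 controls as 1 group the Il34 difference was 0.123 (adjusted p = 0.613).

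Against cisplatin, 4 members had a higher IRI effect and 16 a lower one, beside 13.5% and 16.8% of all genes. By role these were 3 ligands and 1 receptor higher, 13 ligands and 3 receptors lower. The 16 became 6 in edgeR with either scaling (4 ligands and 2 receptors), 8 in DESeq2 (6 and 2) and 29 with all 8 controls as 1 group (22 and 7), and the 4 became 2 with all 8 controls and without IRI 1. Without IRI 1, the higher ligands became 1 and the lower receptors 5. Il1rn (-2.48 ± 0.36, adjusted p = 2.45e-05), Lif (-2.32 ± 0.41, 0.000189) and Cxcl10 (-2.29 ± 0.35, 3.60e-05) differed most toward cisplatin. For Il1rn the difference was -2.45 in edgeR with TMM (adjusted p = 0.301) and -2.44 in DESeq2 (adjusted p = 0.133). For Lif it was -2.87 in edgeR with TMM (adjusted p = 0.0893). Tnfsf15 (1.07 ± 0.39, adjusted p = 0.0412), Tnfsf10 (0.98 ± 0.26, 0.00645) and Il11ra1 (0.69 ± 0.17, 0.00388) differed toward IRI. The Tnfsf15 call was lost in edgeR with TMM (adjusted p = 0.0596), with all 8 controls (0.118), and without any 1 of controls 2, 3, 5, 6 and 8, cisplatin 3 and 4 and IRI 1 and 4 (0.0511 to 0.0886).

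Ligands were set beside their known receptors in 76 textbook pairs, of which 23 had both partners in the table. In 6 of these a partner was not tested, which left 17 pairs. Both partners were higher in 4 pairs in IRI, 11 in rhabdomyolysis and 10 in cisplatin, where 40.6%, 48.8% and 47.8% of all tested genes were called higher and 40.1%, 46.5% and 44.0% lower. In IRI these were Ccl9 with Ccr1, Cxcl1 and Cxcl2 with Cxcr2, and Il1rn with Il1r1. A higher ligand with a lower receptor was seen in 4 pairs in each injury: Il11 with Il11ra1, Lif with Lifr, and Csf1 and Il34 with Csf1r. A lower ligand with a higher receptor was seen in 2 pairs in each: Cxcl12 with Cxcr4 and Tnfsf10 with Tnfrsf10b, the TRAIL receptor. Tnfrsf10b rose from 5.82 ± 2.08 CPM to 12.8, 20.3 and 55.6 CPM. The list was not complete, and 6 pairs with both partners tested were added after the values were seen. These were Il1f6 and Il1f9 with Il1rl2, Lif and Il11 with Il6st, and Il7 and Il15 with Il2rg. With them, IRI had 6 pairs with both partners higher, rhabdomyolysis 15 and cisplatin 14, and 0 of the 6 were called in opposite directions. Tnfsf10 was not paired with Tnfrsf22 and Tnfrsf23, its decoy receptors in mice. Both were called higher in each injury, opposite to Tnfsf10. The log2 changes were 2.0, 2.2 and 1.9 for Tnfrsf22 and 3.6, 4.8 and 4.4 for Tnfrsf23. Partners share libraries and members recur among pairs, so pairs are not independent.

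On the chromosomes (GRCm38.p6), 18 pairs of adjacent members lay within 500 kb of each other. In 2 of them the neighbours were called in opposite directions. Osmr (chr15:6813568-6874968) was higher and Lifr (chr15:7090610-7197489), 216 kb away, was lower in each injury. Cxcl9 (chr5:92321331-92328079) was lower in each, and Cxcl10 (chr5:92346638-92348889) was higher in rhabdomyolysis and cisplatin. The chromosome 2 group of Il1f9, Il1f6 and Il1rn was higher throughout, as were Il1r2 and Il1r1 on chromosome 1 and Cxcl1 and Cxcl2 on chromosome 5. By annotation, 25 members overlap another gene, 7 of them a protein-coding one, and the use of strand in counting was not given in the sources used here.

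Other genes of these pathways came from lists made from textbook knowledge. Of 32 NF-kB pathway genes, 20 were in the table and tested. Called higher and lower were 16 and 1 in IRI, 16 and 1 in rhabdomyolysis, and 19 and 1 in cisplatin, beside 40.6%, 48.8% and 47.8% of all tested genes called higher and 40.1%, 46.5% and 44.0% called lower. The list had medians of 0.80, 1.10 and 1.19. Nfkbia, the feedback inhibitor, rose by 0.59, 1.07 and 2.14 from 21.3 ± 2.87 CPM, and Tnfaip3, also a feedback inhibitor, by 0.57, 0.91 and 2.35. Tab1, a kinase adaptor, was the gene called lower in each. Of 22 JAK, STAT and SOCS genes, 5 were in the table. Socs3, the feedback inhibitor of gp130 signalling, rose from 2.02 ± 0.689 CPM to 27.2, 51.6 and 53.0, and Stat3 from 57.3 ± 2.40 to 143, 256 and 193. Jak3 rose in each injury too, while Ptpn6 fell in IRI and rhabdomyolysis and Cish in rhabdomyolysis and cisplatin. Of 28 TNF receptor superfamily genes, 12 were in the table and 10 tested, with 7, 7 and 10 called higher and 0 lower, beside the same shares of all genes. Tnfrsf12a, the TWEAK receptor, rose from 15.2 ± 2.01 CPM to 192, 502 and 355. Fas, a death receptor, rose in cisplatin (1.54, adjusted p = 1.75e-07) and had no call in IRI (0.667) or rhabdomyolysis (0.282).

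Rhabdomyolysis 4 was the lowest of its 4 libraries for 41 of 64 members and the highest for 10, namely Cxcl2, Cxcr4, Il18rap, Il1f6, Il1r2, Il20rb, Il34, Il6ra, Il7 and Tnfsf12Tnfsf13. IRI 4 was the lowest for 35 members and cisplatin 4 for 32. The same counts over all genes were not made. The median change of all tested genes was also lowest in rhabdomyolysis 4 (0.05, with the others at 0.20 to 0.28). It was also lowest in cisplatin 4 (0.15, with the others at 0.23 to 0.33). In IRI it was lowest in IRI 3 (0.02), with IRI 4 at 0.04. Macrophage and monocyte markers (12 of 17 listed genes in the table) summed to 100 to 140 CPM in controls. They summed to 378, 241, 362 and 169 CPM in rhabdomyolysis, with the lowest value in rhabdomyolysis 4, to 177 to 227 in IRI and to 292 to 417 in cisplatin. Of these 12 markers, 11 were called higher in rhabdomyolysis and cisplatin and 7 in IRI, and Csf1r, which is also in the receptor list above, was called lower in each. All tested genes were called higher in 48.8% in rhabdomyolysis, 47.8% in cisplatin and 40.6% in IRI. Endothelial markers (4 of 8 in the table) summed to 174 to 360 CPM in controls, 341 to 381 in IRI, 601 to 857 in rhabdomyolysis and 381 to 537 in cisplatin. Fibroblast and mural markers (5 of 7) summed to 74.1 to 164, 361 to 442, 368 to 1080 and 186 to 529 CPM in the same order. T cell markers (2 of 12) summed to 1.83 to 3.6 CPM in controls and to 2.06 to 4.63 in injured libraries. The 2 genes differed: Cd8a was called lower in rhabdomyolysis and cisplatin, and Lck was called higher in rhabdomyolysis and IRI. Dendritic cell markers (2 of 7) summed to 3.1 to 7.41 CPM in controls, with IRI at 5.49 to 9.86, rhabdomyolysis at 12.3 to 19.5 and cisplatin at 11.9 to 16.0. Eomes, the 1 of 8 NK cell markers in the table, was at 0 to 0.668 CPM in controls, with IRI at 0.574 to 1.31, rhabdomyolysis at 2.36 to 4.2 and cisplatin at 0.291 to 0.908. Cd79a, the 1 of 7 B cell markers, was at 0.431 to 1.6 CPM in controls and 0 to 0.919 in injured libraries. The part of any of these cells in the members' changes was not tested. Without rhabdomyolysis 4, the members called in rhabdomyolysis were 45 higher and 8 lower, and the ligand and receptor medians were 1.76 and 1.24.

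**Figure D5:**
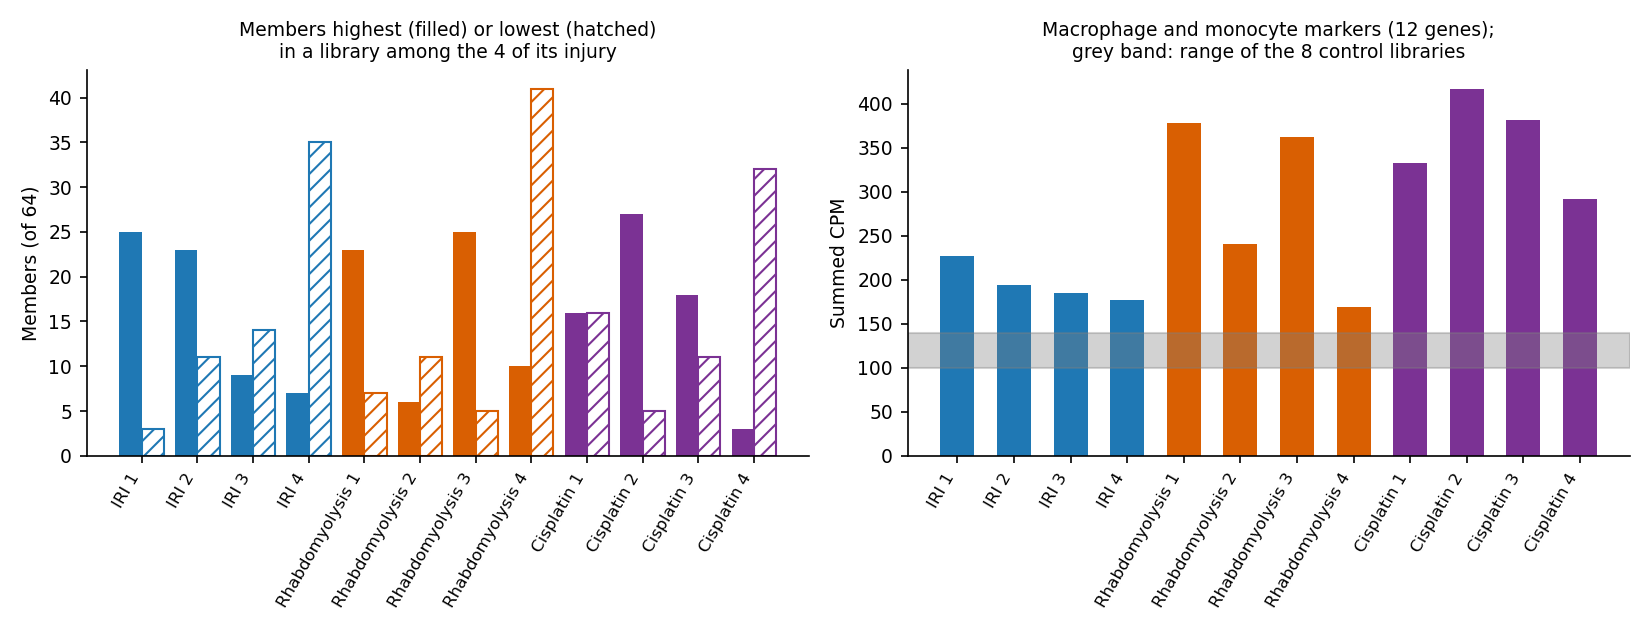
Left, number of the 64 members that are highest (filled) or lowest (hatched) in each library among the 4 of its injury. Right, summed CPM of 12 macrophage and monocyte markers in each injured library, with the control range of 100 to 140 CPM as a grey band; rhabdomyolysis 4 has the most lowest members (41) and the lowest marker sum (169).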

How the data were processed

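Kidney cortex RNA of 20 libraries (control n = 8, IRI n = 4, rhabdomyolysis n = 4, cisplatin n = 4) was captured by poly-A, made into stranded libraries and sequenced as read pairs, per the labels' protocols. Per the submitters' processing notes, FastQC, Bowtie2 2.1.0, RSEM 1.2.15 and edgeR were used with GRCm38. The authors deposited 1 table of CPM values. In each library 100% of values were whole multiples (within 0.01 reads) of the CPM of 1 read, so whole reads were recovered for the count tests. The step of cisplatin 2 is close to a round value, so its recovery is less sure.

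Members and lists were chosen with earlier results of these data known. The test was limma 3.58.1 on log2(CPM + 1) with a trend and 5 groups (2 control ranges, 3 injuries), for the 5672 genes whose mean reached 1 CPM, with Benjamini-Hochberg adjustment at 0.05. It was tested on simulated data. Replicates are biological, per the series' design text. Genes named with every library's values were the 6 largest rises and 4 largest falls per injury without overlap, the 3 largest differences each way between injuries (pair partners by means). Il6 and Tnfsf18 were added after their values were seen. Alternatives used edgeR 4.0.16, DESeq2 1.42.0, other pseudocounts, filters and scalings, pooled controls, a replicate block and each library left out. RefSeq promoters matched 49 members. Near-identical transcripts were found with blastn 2.17.0.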

Additional observations from a re-analysis of the deposited data

Results flagged for a closer look

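Single libraries stood far from the others of their group in 6 of 90 groups examined, where chance gives about 1 in 20, or 4.5. The distance from the next library, divided by the span of the whole group, was 1 for Ccl20 in control 3 (0.129 CPM, or 1 read, with the other controls at 0), 0.974 for Ccl9 in rhabdomyolysis 1 (44 against 21.8 CPM for the next), and 0.872 for Cxcl14 in IRI 4 (14 against 20.5 CPM). It was 0.927 for Cxcl9 in IRI 2 (2.13 against 0.262 CPM), 0.714 for Il11 in control 4 (0.575 against 0.165 CPM) and 0.873 for Il1f6 in cisplatin 3 (14.6 against 7.94 CPM).

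Differences between injuries were tested in limma as differences on the log2(CPM + 1) scale, and the following passed an adjusted p of 0.05. Between rhabdomyolysis and cisplatin they were 2.1 for Il11, 1.08 for Cxcl14, 1.02 for Il6ra, -2.13 for Cxcl10, -1.78 for Tnfsf12Tnfsf13 and -1.60 for Ccl20. Between the IRI and rhabdomyolysis effects they were 1.72 for Tnfsf12Tnfsf13, 1.08 for Cxcl12, 0.84 for Il34, -2.79 for Il11, -2.46 for Il24 and -1.98 for Cxcl14. Between the IRI and cisplatin effects they were 1.07 for Tnfsf15, 0.98 for Tnfsf10, 0.69 for Il11ra1, -2.48 for Il1rn, -2.32 for Lif and -2.29 for Cxcl10. These are the largest differences of each comparison and not all that passed.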

How the results depend on the processing

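No alternative run reversed the direction of a change or difference of the members chosen by the naming rule, nor of a ligand or receptor median against controls. Under quantile normalization the all-gene median turned from -0.09 to 0.03 between rhabdomyolysis and cisplatin and went from 0.30 to 0.03 in cisplatin. Under 75th percentile scaling it went from 0.08 to 0.18 in IRI and from 0.31 to 0.44 in rhabdomyolysis.

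With a minimum mean of 5 CPM, which tests fewer genes, members higher numbered 19 for IRI, 22 for rhabdomyolysis and 21 for cisplatin. Of these, 11, 12 and 12 were ligands. Under that minimum, members lower were 9 between rhabdomyolysis and cisplatin (ligands 3 higher and 8 lower), 9 for the IRI against the rhabdomyolysis effect and 7 for the IRI against the cisplatin effect. A 2-fold minimum left 21 higher and 3 lower in IRI, 3 higher (2 ligands, 1 receptor) and 7 lower (7 ligands, 0 receptors) between rhabdomyolysis and cisplatin, and 2 and 1 members higher for the IRI effect against rhabdomyolysis and cisplatin. Against controls it left 5, 11 and 11 receptors higher in IRI, rhabdomyolysis and cisplatin, and 0, 1 and 1 receptors lower.

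For the IRI against the rhabdomyolysis effect, members higher were 4 under 75th percentile scaling, edgeR with TMM and DESeq2, and members lower were 11 in edgeR with TMM and 8 in edgeR with deposited sizes, which was chosen after seeing the data. For the IRI against the cisplatin effect, members lower were 6 in both edgeR fits, 8 in DESeq2 and 29 with all 8 controls as 1 group, which also left 2 higher. The cause was not tested. The lower receptor between rhabdomyolysis and cisplatin, Il17rc, was not called (0 receptors) under 75th percentile scaling, quantile normalization, no trend, edgeR with TMM, DESeq2 or the replicate block.

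The ligand median in IRI was 1.42 with a pseudocount of 0.1, 0.712 with no minimum mean, 1.16 with a minimum of 5 CPM, 0.804 under quantile normalization, 1.75 and 1.67 in the edgeR fits and 1.64 in DESeq2. The receptor median in IRI was 0.757 with the smaller pseudocount, 0.627 with a minimum of 5 CPM, 0.652 under 75th percentile scaling, 0.384 under quantile normalization, 0.811 and 0.722 in edgeR and 0.701 in DESeq2. In rhabdomyolysis, with the smaller pseudocount, both edgeR fits and DESeq2 in that order, the ligand median was 2.29, 2.56, 2.41 and 2.48 and the receptor median 1.5, 1.69, 1.53 and 1.62. In cisplatin, in that order, the ligand median was 2.40, 2.56, 2.5 and 2.45, with 1.30 under quantile normalization, and the receptor median 1.42, 1.49, 1.43 and 1.36, with 0.671 at a minimum of 5 CPM.

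Leaving out each library in turn gave 4 to 7 members higher for the IRI against the rhabdomyolysis effect and 2 to 4 against the cisplatin effect. Between rhabdomyolysis and cisplatin it gave 5 to 10 ligands higher and 0 to 1 receptors lower. Replicate numbers are shared by controls and IRI and by rhabdomyolysis and cisplatin. Deviations of same-numbered libraries had correlations of 0.0649, -0.112, 0.176 and -0.0525 for controls 1 to 4 and IRI. For rhabdomyolysis and cisplatin they were -0.0977, -0.207, 0.0334 and 0.325. Not every library correlated best with its own number. With 4 libraries per group these values cannot show whether the numbers pair the samples. The replicate block gave 36 members higher and 7 lower in IRI, and 9 higher and 13 lower between rhabdomyolysis and cisplatin.

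One read was worth up to 0.165 CPM, so changes of members near 0 in controls rest on few reads and their fitted sizes on the pseudocount.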
